A study of Mus musculus with 2 samples.

Results

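Genes of the haploid phase of spermatogenesis, *Prm1*, *Prm2*, *Tnp1*, *Tnp2*, *Acrv1*, *Odf1*, *Akap4* and *Spaca1*, were examined in testes of 9-day-old mice as a check on the stage of the tissue. They were picked by gene symbol, by a rule that uses no measured value but was set with earlier results of these data known, and all 8 were found among the 39695 gene entries of the RNA-seq tables. One library was made from control males, whose *Bcas2* alleles were 1 floxed and 1 deleted (Bcas2F/-) and which had no Cre. The other library came from Bcas2F/-;Vasa-Cre males, in which *Vasa-Cre*, a transgene active in germ cells, removes the floxed allele there. Somatic cells of both genotypes therefore keep the single floxed copy of *Bcas2*, a subunit of the Prp19 splicing complex. The sample labels give the strain as C57BL/6, whereas the methods of the study describe a mixed background that includes C57BL/6. Both libraries were made from total RNA of whole testes at postnatal day 9 (P9), and the number of pooled mice is not given in the sources used here. With 1 library per genotype, differences between the genotypes could not be set against the spread among mice, and none was tested.

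Spermatids are the haploid cells that male meiosis produces. In the mouse the first round spermatids form towards the end of the third postnatal week, after a long meiotic prophase, so a testis at P9 is normally made of spermatogonia, the earliest meiotic cells and somatic cells. In spermatids the histones are first replaced by transition proteins (*Tnp1*, *Tnp2*) and then by protamines (*Prm1*, *Prm2*), which pack the sperm DNA. *Acrv1* and *Spaca1* encode proteins of the acrosome, the secretory cap of the sperm head, and SPACA1 sits in its membrane. *Odf1* encodes a protein of the outer dense fibres and *Akap4* the main anchoring protein of the fibrous sheath, both parts of the sperm tail. Many spermatid genes are known targets of CREM, an activator that binds the cAMP response element (CRE).

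Because the promoters of such genes are known for CRE-like letters, the RefSeq promoter windows, which lie mostly upstream of the transcription start (GRCm38.p6), were searched. Windows were held for 7 members, and *Odf1* had none. The whole CRE, TGACGTCA, was in no member window and in 1.79% of the 32851 windows of all genes. The short CRE core TGACG, a part of the whole CRE, was searched on both strands and was present in *Spaca1* only, 2 times, against 20.8% of all windows. A CRE with 1 free base, TGANGTCA, of which the whole CRE is a form, was also searched on both strands and was in the windows of *Prm1*, *Tnp1* and *Akap4*, against 8.83% of all windows. This last motif was chosen after the sequences had been read. The pieces of 30 bases around these matches are shown because they hold the only CRE-like letters found in the member windows. The capitals mark the motif, TGACG where it was present and otherwise TGANGTCA. A link of these letters to the level of a gene was not tested. *Tnp1*, the other member above 1 RPKM beside *Spaca1*, shares its motif with *Prm1* and *Akap4*.
Prm1, chr16:10796869-10796898, minus strand: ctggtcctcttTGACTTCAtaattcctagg
Tnp1, chr1:73015975-73016004, minus strand: gcaaaggttagTGATGTCAcaagagagctg
Akap4, chrX:7067469-7067498, plus strand: tatagaaacagTGATGTCAtgaattttaag
Spaca1, chr4:34050113-34050142, minus strand: gaatggggTGACGcgcggTGACGcctcaat
All pieces lie upstream of the RefSeq start. In *Prm1* the match is on the other strand of the printed sequence. In GENCODE M21 the piece of *Prm1* overlaps an exon of 1 of 2 transcripts and that of *Spaca1* an exon of 1 of 3, while the pieces of *Tnp1* and *Akap4* overlap no exon of their gene.

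The *Spaca1* window also stood apart from those of the other members in base composition, though not from the windows of all genes in CpG number. It held 16 CpG dinucleotides and 63.0% GC, whereas the windows of the other members held 0 to 6 CpG dinucleotides and 38.3% to 56.0% GC. The median over all windows was 7 CpG dinucleotides, with quartiles of 3 and 20, so the *Spaca1* number lay within the quartiles. The quartiles of GC were 45.67% and 61.67%, and *Spaca1* lay just above the upper one. The motif TATAA, searched on the coding strand from 50 to 15 bases upstream of the start, was in the windows of *Prm1* and *Tnp2* and in 4.49% of all windows. These matches are letters found in a window, and no binding was measured.

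**Figure D1:**
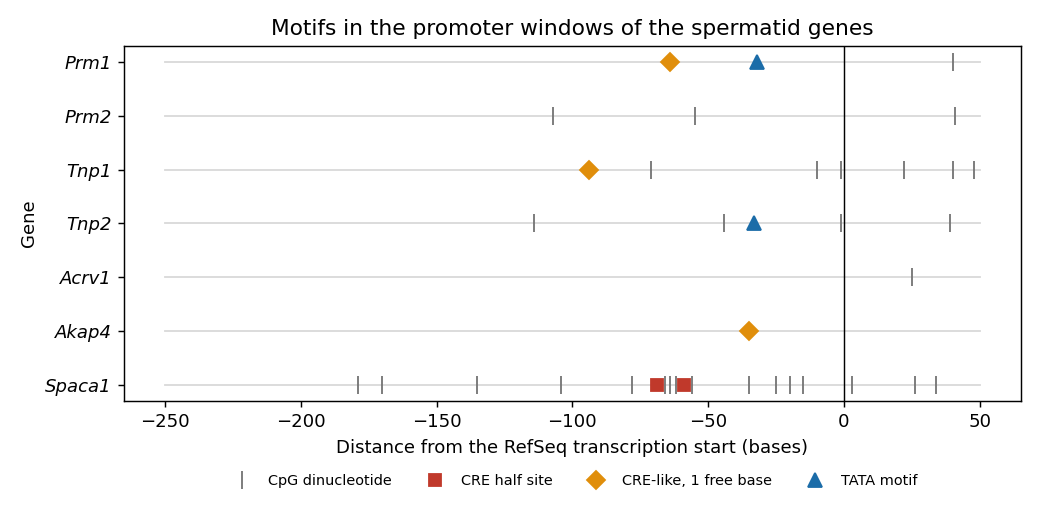
Positions of CpG dinucleotides and motifs in the promoter window of each member that has one, in bases from the RefSeq transcription start (the first window of each gene; horizontal lines span the window). *Spaca1* is the only member with TGACG, which is in 20.8% of all windows. It has 16 CpG dinucleotides, against 0 to 6 in the others and quartiles of 3 and 20 over all windows.

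Of the 8 genes, 6 were low in both libraries, with at most 0.565 RPKM, and *Tnp1* and *Spaca1* were above 1 RPKM. The tables give RPKM, counted reads scaled by gene length and by library size, and the whole reads behind each value were recovered from the size of its steps. The depth was 19918750 counted reads for the control library and 19331687 for Bcas2F/-;Vasa-Cre. The 8 genes together had 75 of these reads in the control and 99 in Bcas2F/-;Vasa-Cre, or 3.77 and 5.12 reads per 1000000. Their median RPKM was 0.179 in the control and 0.250 in Bcas2F/-;Vasa-Cre, where the median of all 21225 protein-coding genes was 4.15 and 4.16. In the control 7 of the 8 genes were listed above 0, and in Bcas2F/-;Vasa-Cre 6 were, against 81.8% and 81.6% of all protein-coding genes. A few reads were thus present for most members, as for most protein-coding genes. At an RPKM of at least 1, only *Tnp1* and *Spaca1* remained in either library, against 61.4% and 61.1% of the protein-coding genes. In whole testes, fewer cells of a type and less RNA per cell cannot be told apart.

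**Figure D2:**
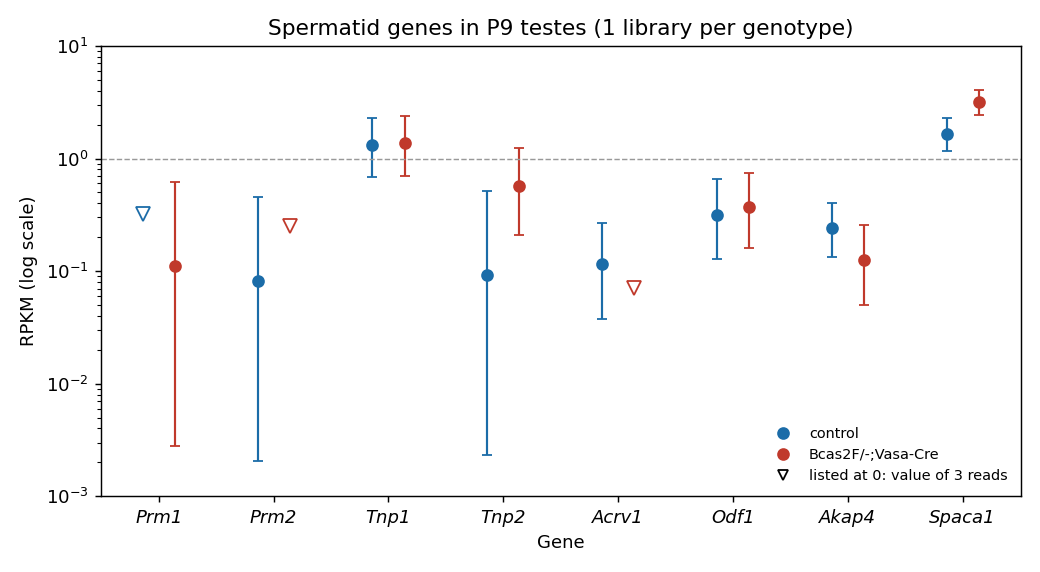
RPKM on a log scale of the 8 members in the control (blue) and Bcas2F/-;Vasa-Cre (red) library, 1 library each; bars are 95% exact Poisson intervals of the reads (counting error only) and open triangles mark the value of 3 reads where a gene was listed at 0. Only *Tnp1* and *Spaca1* lie above the dashed line at 1 RPKM, and the *Spaca1* intervals of the 2 libraries do not overlap.

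Among the chromatin genes, the protamines were represented by a single read each. *Prm1*, on chromosome 16 of GRCm38 from 10796326 to 10805839, was listed at 0 in the control and at 0.110 RPKM in Bcas2F/-;Vasa-Cre, the value of 1 read. The limit that a count of 0 allows, 3 reads, corresponds to 0.321 RPKM of *Prm1* in the control. *Prm2*, which lies 192 bases from *Prm1* (chromosome 16, 10791380 to 10796134), showed the opposite, with 1 read at 0.0812 RPKM in the control and 0 in Bcas2F/-;Vasa-Cre, where 3 reads would give 0.251 RPKM. Both protamine genes were thus at or under the 3-read limit in both libraries, and no fold is given for either.

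*Tnp2*, in the same cluster (chromosome 16, 10787936 to 10788660), was at 0.0914 RPKM with 1 read in the control and at 0.565 RPKM with 6 reads in Bcas2F/-;Vasa-Cre. The ratio was 6.18-fold, but its 95% Clopper-Pearson interval ran from 0.750 to 284-fold and included equal levels. *Prm3*, which lies between *Tnp2* and *Prm2*, was listed at 0 in both libraries. *Socs1*, the neighbour of *Tnp2* and a cytokine signalling inhibitor that is no spermatid gene, was at 6.83 and 5.05 RPKM beside the low values of the cluster. *Gm11172*, a small gene on the other side of *Prm1*, was listed at 0 in both libraries. *Gm10343*, a processed pseudogene in an intron of *Prm1* that shares no exon base with it, was at 0.289 RPKM in the control and 1.19 RPKM in Bcas2F/-;Vasa-Cre. The antisense gene *Gm46563* also lies across *Prm1* without sharing an exon base, and was not analysed here.

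*Tnp1* was the chromatin gene with the most reads. It lies apart from the cluster, on chromosome 1 from 73015074 to 73015909, and had 1.32 RPKM in the control and 1.36 RPKM in Bcas2F/-;Vasa-Cre. The ratio of these values is that of equal whole reads, and the annotated length of 437 bases gives 11.5 reads in each library, so 11 or 12 reads lie behind each value, depending on the length the authors used. With 12 reads in each library, the ratio of 1.03-fold had an interval from 0.423 to 2.51-fold, so a difference of up to that size was not detectable at this depth. *Tnp1* stood above 40.7% of protein-coding genes in the control and 41.0% in Bcas2F/-;Vasa-Cre. An exon of the antisense transcript *1700027A15Rik* shares 40 bases with a *Tnp1* exon. That antisense gene has no entry in the tables used here, and counting by strand is not stated, so reads of the pair cannot be told apart.

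The flagellum genes had a few reads in both libraries. *Odf1* (chromosome 15, 38219203 to 38226735) was at 0.318 RPKM with 7 reads in the control and at 0.375 RPKM with 8 reads in Bcas2F/-;Vasa-Cre, a ratio of 1.18-fold with an interval from 0.373 to 3.81-fold. *Akap4*, the only member on the X chromosome (7067519 to 7078609), was at 0.242 RPKM with 14 reads in the control and at 0.125 RPKM with 7 reads in Bcas2F/-;Vasa-Cre. The ratio of control to Bcas2F/-;Vasa-Cre was 1.94-fold, with an interval from 0.733 to 5.68-fold. Neither gene differed beyond its counting error. *Akap4* reads were counted over a mean transcript length of 2903 bases, so its 14 reads gave a lower RPKM than the 7 reads of *Odf1*, whose transcript has 1105 bases.

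The acrosome genes differed from each other. *Acrv1* (chromosome 9, 36693220 to 36698843) was at 0.115 RPKM with 5 reads in the control and listed at 0 in Bcas2F/-;Vasa-Cre. The control value was 1.62-fold the 3-read limit of 0.0711 RPKM in Bcas2F/-;Vasa-Cre, which leaves out the counting error of the control. The interval of the ratio of Bcas2F/-;Vasa-Cre to control reached 1.12-fold, so 5 against 0 reads was within counting error. The annotation gives *Acrv1* a second, longer transcript that keeps intronic sequence, and the mean length of 2183 bases that fits 5 whole reads includes it. Which transcript the reads came from cannot be read from gene-level values.

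*Spaca1* had the highest level of the 8 genes in both libraries. Its position is chromosome 4, 34024874 to 34050191, minus strand, with 3 annotated transcripts and no overlapping gene. It was at 1.66 RPKM with 35 reads in the control and at 3.17 RPKM with 65 reads in Bcas2F/-;Vasa-Cre. The 95% Poisson intervals, 1.15 to 2.31 RPKM and 2.45 to 4.04 RPKM, did not overlap. The ratio of Bcas2F/-;Vasa-Cre to control was 1.91-fold, with a Clopper-Pearson interval from 1.25 to 2.97-fold that covers counting error only. It stood above 42.3% of protein-coding genes in the control and 47.6% in Bcas2F/-;Vasa-Cre. *Spaca1* therefore differed by more than counting error between these 2 libraries, and how far it varies between mice of 1 genotype was not measured.

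On the scale of log2 of RPKM + 1, on which low genes appear to change less, *Spaca1* was 0.65 higher in Bcas2F/-;Vasa-Cre and *Tnp1* 0.02 higher. These were the only 2 members whose mean RPKM reached 1, the level from which genes were compared by fold. *Spaca1* was past the 1.5-fold threshold and *Tnp1* was not. Of the 14831 genes compared, 1.57% were past 1.5-fold higher and 1.69% past 1.5-fold lower. Of the 4168 genes whose mean RPKM lay between 1 and 5, where *Spaca1* and *Tnp1* fall, 4.49% were past 1.5-fold higher and 3.53% past 1.5-fold lower, and among the 2785 protein-coding genes of that class 1.18% were past 1.5-fold higher. *Spaca1* was thus 1 of 33 such protein-coding genes. For comparison, *Bcas2* itself was at 39.5 RPKM in the control and 25.7 in Bcas2F/-;Vasa-Cre (log2 ratio -0.60).

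*Spaca1* supplied a large share of the reads of the 8 genes, 46.7% in the control and 65.7% in Bcas2F/-;Vasa-Cre. Without it, 40 reads were left in the control and 34 in Bcas2F/-;Vasa-Cre, with Poisson intervals of 28.6 to 54.5 and 23.5 to 47.5 reads. The higher sum of reads in Bcas2F/-;Vasa-Cre thus came from *Spaca1*. Summed as RPKM, the 7 genes without *Spaca1* were still higher there, at 2.54 against 2.17 in the control. With *Tnp1* left out as well, the remaining 6 genes had 28 and 22 reads, or 1.41 and 1.14 reads per 1000000. In the order of RPKM in the control, *Spaca1* and *Tnp1* led and did not differ beyond their intervals, followed by *Odf1* and *Akap4*. The intervals of *Acrv1*, *Tnp2* and *Prm2* overlapped those of *Odf1* and *Akap4*. In Bcas2F/-;Vasa-Cre, the *Spaca1* interval lay above that of *Tnp1*, which reached 2.38 RPKM.

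**Figure D3:**
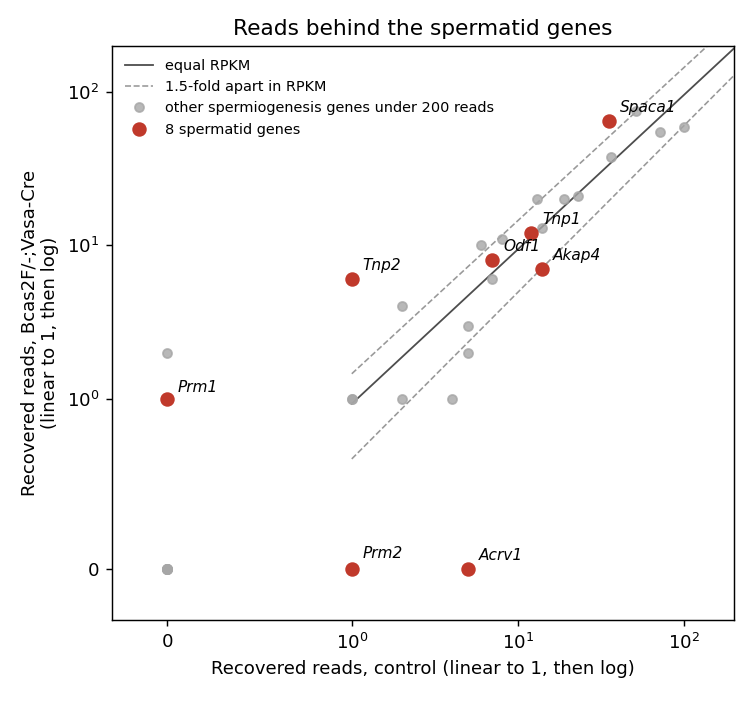
Recovered reads of the 8 members (red) and of other weakly covered spermiogenesis genes (grey) in the control (x axis) and Bcas2F/-;Vasa-Cre library (y axis), linear up to 1 read and logarithmic above; the solid line marks equal RPKM and the dashed lines 1.5-fold. Most members with reads in both libraries have fewer than 15 reads, and *Spaca1*, with 35 and 65 reads, lies above the upper dashed line.

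Most other genes of spermiogenesis were also low. Of a list of 28 further genes, 20 were listed above 0 in the control and 21 in Bcas2F/-;Vasa-Cre, 6 were at 0 in both libraries, and the median RPKM was 0.131 and 0.115. Just 4 reached a mean RPKM of 1, and 0 of them were past 1.5-fold. *Odf2*, which also encodes a centrosomal protein of dividing cells, stood far above the rest at 42.7 and 42.4 RPKM. *Gapdhs*, the sperm form of a glycolytic enzyme, had 2.19 and 3.32 RPKM, a log2 ratio of 0.44. *Cabyr*, a fibrous sheath protein, had 2.39 and 1.91 RPKM, and *Oaz3*, the testis antizyme, had 1.05 and 1.14 RPKM. *Zpbp*, an acrosome protein just under that mean and named after its values were seen, went the other way from *Spaca1*, with 1.18 RPKM (100 reads) in the control and 0.718 RPKM (59 reads) in Bcas2F/-;Vasa-Cre, and the interval of its log2 RPKM ratio, -1.21 to -0.24, left out 0. That of *Gapdhs*, 0.07 to 1.14, left out 0 in the same direction as *Spaca1*. The lowest by mean RPKM above 0, *Fscn3*, an actin-bundling protein, had 0.0435 RPKM in the control, the value of 1 read, and was listed at 0 in Bcas2F/-;Vasa-Cre.

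The regulators of spermatid genes had a higher median than the genes themselves, though not every regulator stood above them. Of 11 regulators, all had reads in both libraries, and the median RPKM was 2.99 in the control and 2.39 in Bcas2F/-;Vasa-Cre. Both were below the medians of all protein-coding genes, 4.15 and 4.16. *Crem* was at 11.4 and 11.5 RPKM, and *Fhl5*, the coactivator of CREM in spermatids, was the lowest at 0.132 and 0.318 RPKM. The table holds 1 value per gene, so the activator and repressor forms of *Crem* are not separated. *Taf7l*, a germ cell TFIID subunit, was the highest at 191 and 151 RPKM. *Tbpl1*, a TBP-like factor, had 46.0 and 45.3 RPKM, *Brdt*, a testis bromodomain protein, 11.9 in both, and *Ybx2*, which binds stored germ cell mRNA, 10.1 and 9.30 RPKM. *Kif17*, a motor that binds the CREM coactivator, had 2.99 and 2.39 RPKM, *Rfx2*, a factor of ciliary and spermatid genes, 1.57 and 1.45, and *Piwil1*, a pachytene PIWI protein, 1.79 and 1.01 RPKM. Of the 8 regulators whose mean RPKM reached 1, 0 were past 1.5-fold in either direction on the scale of log2 of RPKM + 1. Their median log2 ratio was -0.09, against 0.02 over all genes compared. The intervals of the log2 RPKM ratio left out 0 for *Taf7l* (-0.41 to -0.28) and *Piwil1* (-1.32 to -0.34), both lower in Bcas2F/-;Vasa-Cre. *Papolb*, under that mean and named after its values were seen, was higher there. It had 0.521 RPKM (44 reads) in the control and 1.03 RPKM (84 reads) in Bcas2F/-;Vasa-Cre, with an interval from 0.43 to 1.54.

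The early meiosis and spermatogonia lists had medians far above that of the spermatid genes, whereas the pachytene list lay close to it. The 11 genes typical of pachytene spermatocytes had a median RPKM of 0.224 in the control and 0.495 in Bcas2F/-;Vasa-Cre. These were 1.26 and 1.98 times the median of the spermatid genes, and 3 of 11 were listed at 0 in the control. Within that list *Mybl1* was at 12.7 and 15.6, *Hspa2* at 11.4 and 11.8, *Cdc25c* at 10.7 and 7.36 and *Pdha2* at 3.18 and 3.08 RPKM, whereas *Adam2*, a sperm surface protein, was at 0 and 0.0203 RPKM. The list median was the value of *Ccna1* in both libraries, with 7 and 15 reads. Of the 4 that reached a mean RPKM of 1, 0 were past 1.5-fold, and their median log2 ratio was 0.0033. The interval of the log2 RPKM ratio left out 0 for *Mybl1*, higher in Bcas2F/-;Vasa-Cre (0.12 to 0.47), and for *Cdc25c*, lower there (-0.81 to -0.28). The 13 genes of early meiosis had a median of 18.2 RPKM in the control and 11.3 in Bcas2F/-;Vasa-Cre, 102 and 45.3 times the median of the spermatid genes. The 11 spermatogonia genes had medians of 39.2 and 30.1 RPKM, 220 and 121 times that median. In the control the median of the spermatid genes lay between *Acrv1* and *Akap4*, with 5 and 14 reads. In Bcas2F/-;Vasa-Cre it lay between *Akap4* and *Odf1*, with 7 and 8 reads. The multiples therefore rest on few reads, and their difference between the libraries was not tested.

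**Figure D4:**
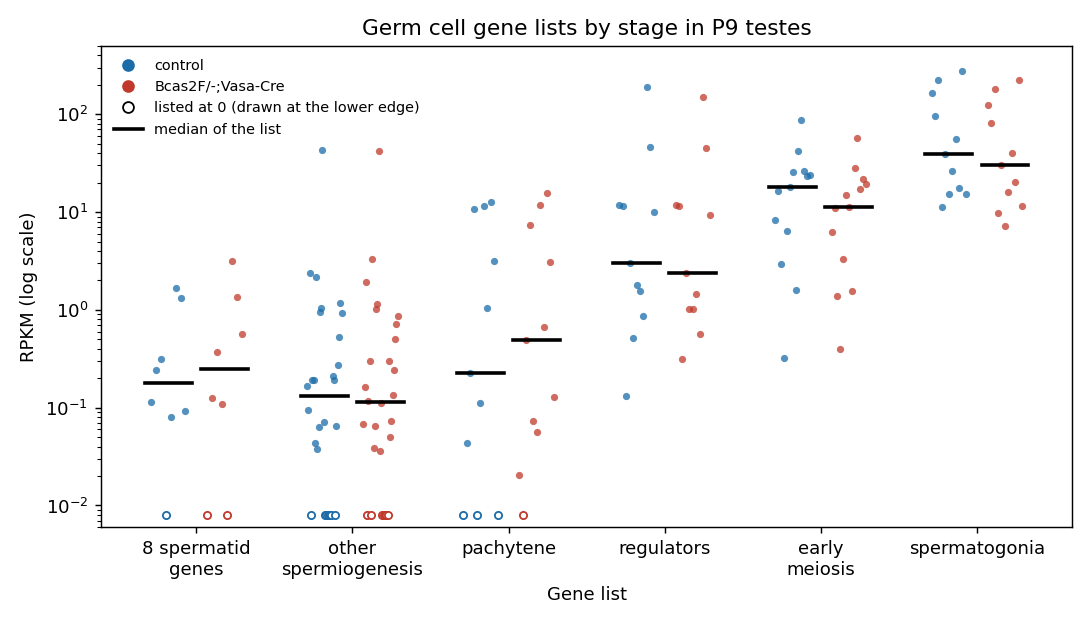
RPKM on a log scale of single genes (points) in 6 lists, in the control (blue) and Bcas2F/-;Vasa-Cre (red) library, with the median of each list as a black bar; open points at the lower edge were listed at 0. The medians of the spermatid and other spermiogenesis genes lie between 0.115 and 0.250 RPKM, those of early meiosis and spermatogonia between 11.3 and 39.2 RPKM.

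Most genes of early meiosis and spermatogonia were lower in Bcas2F/-;Vasa-Cre. Of the 12 early meiosis genes that reached a mean RPKM of 1, 12 had a log2 ratio below 0 and 4 were past 1.5-fold lower, with a median of -0.56. Over all 14831 genes compared, 46.3% were below 0, 53.7% above 0 and 1.69% past 1.5-fold lower. The 4 early meiosis genes past 1.5-fold lower were *Stra8*, the retinoic acid target of meiotic entry (87.2 and 56.8 RPKM), and *Smc1b*, a meiotic cohesin (25.6 and 11.3). The others were *Prdm9*, which marks recombination sites (6.34 and 3.33), and *Mei1*, needed for meiotic breaks (2.93 and 1.39). *Meiob* was the lowest of the list at 0.324 and 0.395 RPKM. Of the 11 spermatogonia genes, 10 were below 0 and 2 past 1.5-fold lower, *Nanos3* (15.2 and 7.16 RPKM) and *Sall4* (26.6 and 15.9), with a median of -0.37. *Uchl1* was the highest at 279 and 224 RPKM and *Gfra1* the lowest by mean RPKM at 11.2 and 9.74. The difference between these lists and the spermatid genes was not tested, since only 2 of the 8 spermatid genes could be compared by fold. By real-time RT-PCR of P9 testes, the study found *Stra8*, *Kit*, *Dazl*, *Sohlh1*, *Sohlh2* and *Ddx4* (its *Mvh*) similar in both genotypes. It found *Dmc1*, *Sycp1*, *Sycp3* and *Smc1b* significantly lower in Bcas2F/-;Vasa-Cre.

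Somatic and blood genes were set beside the germ cell lists, and their levels do not separate the number of cells from RNA per cell. Of 8 Sertoli cell genes, 7 were above 10 RPKM in both libraries, from *Sox9* at 28.5 and 35.1 to *Clu* at 2593 and 2813 RPKM, and *Rhox5* was listed at 0 in both. Whether a listed 0, of *Rhox5* or of a spermatid gene, came from the counting or annotation was not tested. Of 7 that could be compared, 7 were higher in Bcas2F/-;Vasa-Cre, 0 of them past 1.5-fold, with a median log2 ratio of 0.22. The Leydig cell list had a median of 0.20, with 4 genes higher and 2 lower in Bcas2F/-;Vasa-Cre. In that list *Cyp17a1* was past 1.5-fold higher (94.8 and 152 RPKM). The range ran from *Lhcgr*, the lowest at 5.62 and 5.75, to *Hsd3b1*, the highest at 189 and 168 RPKM. The myoid list had a median of -0.01, from *Cnn1* at 10.9 and 11.7 to *Acta2* at 344 and 314 RPKM. All 6 blood and immune genes were lower in Bcas2F/-;Vasa-Cre and 3 were past 1.5-fold, *S100a8* (9.35 and 0.660 RPKM), *S100a9* (9.83 and 0.401) and *Hbb-bt* (42.4 and 20.3). *Hba-a1* was the highest of that list at 197 and 164 RPKM and *Ptprc* the lowest by mean RPKM at 1.29 and 0.859. Over all 14831 genes compared, 53.7% were above 0 and 46.3% below 0, with 1.57% past 1.5-fold higher and 1.69% past 1.5-fold lower. The part of the somatic and blood shifts in the *Spaca1* difference was not tested.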

How the data were processed

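RNA-seq of P9 testes was examined, 1 control and 1 Bcas2F/-;Vasa-Cre library. The authors removed adaptor and low-quality reads, aligned the read pairs with TopHat2 2.0.9 to mm10, as the submitters' processing notes give, counted reads with HTSeq and deposited RPKM values, zeros kept. The annotation and gene lengths they used are not given in the sources used here. Of 39695 entries, 37606 (94.7%) were matched by identifier to GENCODE M21 (GRCm38).

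Whole reads were recovered from the RPKM steps. The commonest ratio of the libraries' values gave their relative size, and genes with a single annotated transcript gave the size itself, on which 1457 of 2820 genes agreed to within 1 part in 1000000. Reads used the rounded mean transcript length, and a gene above 0 in both libraries kept its ratio of whole reads. Prm1, Prm2 and Tnp2 came within 5% of a whole number and Tnp1 between 11 and 12. The library sizes and the rounding to whole reads were tested on simulated libraries. There, reads were checked only for genes whose annotated length was the one used. The step that keeps the ratio of whole reads was not tested in this way. Intervals are at 95% and cover counting error only.

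The ratio was log2 of RPKM + 1, for genes whose mean RPKM reached 1, past 1.5-fold where stated. Named were all members, of each other list the genes with the highest and lowest mean RPKM above 0 and those past 1.5-fold, in the spermiogenesis, regulator and pachytene lists every gene whose mean RPKM reached 1, genes sharing exon bases with a member, and Bcas2. Other neighbours of members, Zpbp, Papolb, Ccna1 and listed genes of the study's RT-PCR were added after their values were seen. Members and lists were chosen with earlier results of these data known. Promoters came from RefSeq (GRCm38.p6). Scripts ran in Python 3.11.15 with scipy 1.17.1 for the intervals, pandas 2.3.3, numpy 2.4.6 and, for the plots, matplotlib 3.10.9.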

Additional observations from a re-analysis of the deposited data

How the results depend on the processing

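Pseudocounts of 0.1 and 0.01 in place of 1 moved *Tnp2* from a log2 ratio of 0.52 to 1.80 and 2.50. *Akap4* moved from -0.14 to -0.61 and -0.90. Both thus passed 1.5-fold, though their mean RPKM was below 1. *Spaca1* stayed past 1.5-fold, and *Tnp1* and *Odf1* stayed short of it. All 5 stayed within their counting intervals, which cannot judge the pseudocount because they are intervals of the ratio without one. The ratios also stayed there after the gene-wide median was shifted to 0. The same held after each library's RPKM values were scaled to sum to 1000000, where *Tnp2* was at 0.73. With an RPKM of at least 1 counted as present, 2 members were present in the control and 2 in Bcas2F/-;Vasa-Cre, in place of 7 and 6, as a higher limit must lower the count. With a pseudocount of 0.01, 1 spermiogenesis gene was past 1.5-fold higher, and with pseudocounts of 0.1 and 0.01, 1 regulator was past 1.5-fold lower in each, where there had been 0. With a mean RPKM of at least 5, 2 early meiosis genes were past 1.5-fold lower, as fewer genes were compared, and with pseudocounts of 0.1 and 0.01 there were 6, in place of 4. The 8 members had 83 and 107 reads with the longest transcript as the length, and 97 and 132 with the union of exons. No paired analysis was possible because each genotype had 1 library. At this depth, 1 read was worth between 0.0173 and 0.113 RPKM of a member, so lower levels were not detectable.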
